A study of Homo sapiens with 18 samples.

Results

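Regulators of the neural crest, 9 of the 58870 genes of the deposited count table, were followed through human melanoma cells that overexpressed either MAFG or GFP. They were chosen by gene symbol and comprised the AP-2 factors TFAP2A, TFAP2B and TFAP2C, the forkhead factors FOXD3 and FOXD1, the homeobox factors MSX1 and MSX2, the transcriptional coactivator EYA2 and the ETS-family factor ETS1. The neural crest is a migratory embryonic cell population from which melanocytes arise. AP-2 and MSX factors act early, at the border of the neural plate, whereas FOXD3 and ETS1 help to specify the crest cells and FOXD3 is known to hold back the melanocyte fate. In melanoma, AP-2α is known as an activator of differentiation genes such as KIT, and its loss has been linked to progression.

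RNA-seq was performed on 3 established human melanoma lines, WM164, SKMEL28 and A375, with 3 libraries of cells overexpressing GFP and 3 of cells overexpressing MAFG in each line, 18 libraries and 6 conditions in all. According to the study's methods, cells were transduced with lentiviral vectors in which an EF1α promoter drives GFP or a Myc-DDK-tagged open reading frame of MAFG, and were selected with blasticidin. MAFG is a small MAF protein that has a DNA-binding domain but no activation domain of its own and acts as a dimer with other bZIP proteins, and the comparison asks which genes its overexpression changes in cells of differing melanocyte character. The labels do not say whether the 3 libraries of a condition came from separate cultures, so p-values measure the spread between these libraries, which may be technical.

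The counts per library ranged from 20122172 to 39025042, with a median of 31061375. Levels are given as CPM, counts scaled to library sizes that were normalized over the 18 libraries (TMM), and 3 counts correspond to 0.0698 to 0.148 CPM. MAFG itself was at 25.8 ± 2.91 CPM with GFP and 53.1 ± 4.59 with MAFG overexpression in WM164 cells (SD, n = 3 libraries). In SKMEL28 cells, it was at 24.1 ± 3.47 and 37.3 ± 1.54 CPM, and both changes passed edgeR's test (adjusted p = 6.37e-08 and 1.28e-04). In A375 cells, the levels were 27.0 ± 4.98 and 47.3 ± 9.24 CPM, with no overlap of the libraries, but the change did not pass edgeR's test (log2 fold change 0.80, standard error 0.17, adjusted p = 0.0655), while it passed the adjusted p of DESeq2. By the deposited TPM values, MAFG was at 2.50 to 3.51 with GFP and 20.9 to 27.5 with MAFG overexpression in WM164, at 3.23 to 4.43 and 14.1 to 19.4 in SKMEL28, and at 3.94 to 4.52 and 22.4 to 28.2 in A375 cells. The melanocyte lineage markers MLANA and TYR had no count in any of the 6 A375 libraries, whereas MLANA reached 8337 to 10334 counts in WM164 and 9356 to 15880 in SKMEL28 cells overexpressing GFP. PTPRC, a leukocyte marker, and CD3E, a T cell marker, were at 0 TPM in all libraries.

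Of the 9 regulators, 3 were called higher in WM164 cells overexpressing MAFG (TFAP2B, TFAP2C and EYA2), where 4.94% of the 15919 tested genes were called higher and 6.94% in either direction. A call required a change of more than 2-fold together with an adjusted p at or below 0.05. In SKMEL28 cells, 2 of the 7 tested regulators were called, both lower (FOXD3 and FOXD1), against 2.98% of 15523 tested genes called lower and 4.74% in either direction. In A375 cells, 1 of 8 was called, again TFAP2B and again higher, against 0.646% of 15779 tested genes called higher and 0.665% in either direction. By the adjusted p alone, without a limit on the fold change, 4 regulators rose and 2 fell in WM164 cells, where 16.2% of all tested genes rose and 15.6% fell. In SKMEL28 cells, 1 rose and 2 fell, against 14.6% and 15.3% of genes, and in A375 cells 1 rose and none fell, against 0.780% and 0.0634%. The other 7 regulators tested in A375 cells include 2 with an unadjusted p under 0.05, and DESeq2 also called TFAP2B alone there. The libraries of both conditions did not overlap for 6 of 9, 3 of 7 and 4 of 8 regulators, against 43.4%, 43% and 12.3% of all tested genes. For the regulators as a group, the log2 fold changes had a median of 0.11 (WM164), −0.08 (SKMEL28) and −0.11 (A375), against −0.00, −0.01 and −0.00 over all tested genes. TFAP2B, tested in WM164 and A375 alone, lies above the median at its lower bound too, so that using the bound cannot change the median.

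**Figure D1:**
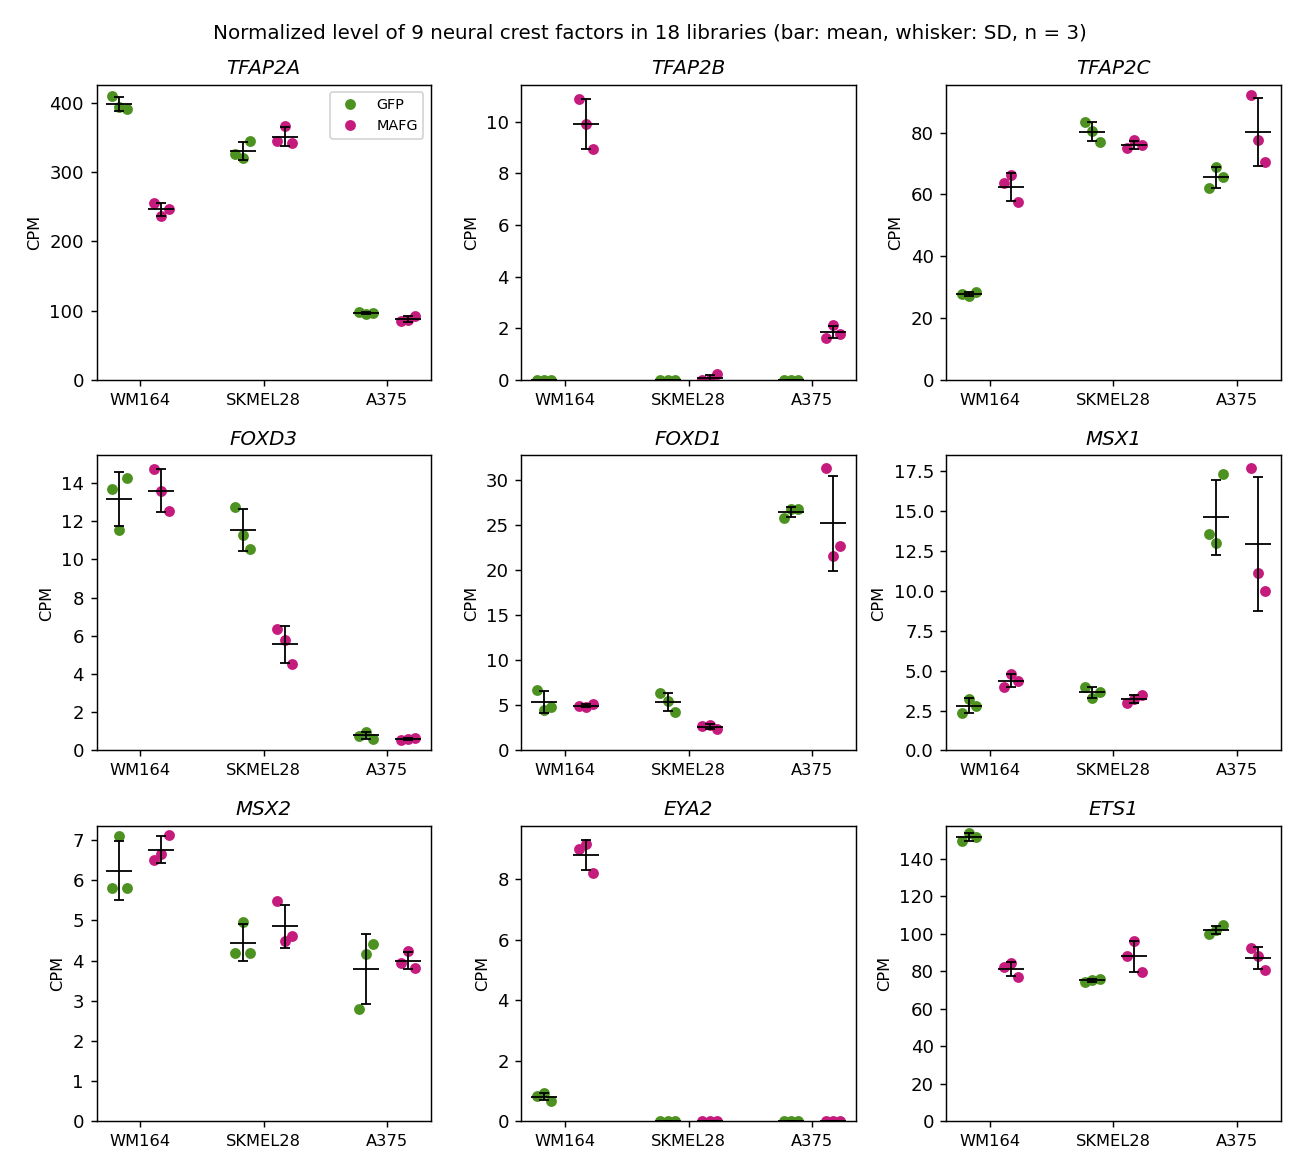
Level of each of the 9 regulators in every library, with CPM on the vertical axis of each panel, the 3 lines side by side, GFP libraries in green, MAFG libraries in magenta, and the mean and SD (n = 3) in black. TFAP2B lies at 0 in all 9 GFP libraries and at 8.96 to 10.9 CPM in WM164 cells overexpressing MAFG, and EYA2 has no count outside WM164.

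TFAP2B, which encodes AP-2β, changed from no count to a measurable level. No read was counted in any of the 9 GFP libraries. With MAFG overexpression, it had 311, 268 and 290 counts in WM164 and 65, 80 and 77 counts in A375 cells, whereas SKMEL28 cells had 0, 0 and 6. Every MAFG library of WM164 and A375 therefore lay above every GFP library, while SKMEL28 stayed at the detection floor of 3 counts per library in all but 1 of its 6 libraries. The level of 9.92 ± 0.961 CPM in WM164 cells overexpressing MAFG was at least 91.5-fold higher than with GFP when 3 counts per GFP library were taken as the bound (adjusted p = 2.65e-11 with edgeR). In A375 cells, 1.85 ± 0.244 CPM was at least 22.8-fold higher (adjusted p = 0.00318 with edgeR). By the deposited TPM values, it was at 2.44 to 3.71 in WM164 but at only 0.26 to 0.90 in A375 cells overexpressing MAFG. TFAP2B did not enter the test in SKMEL28 cells because its counts were too low. Among cells overexpressing MAFG, WM164 exceeded A375 by 2.42 on the log2 scale (standard error 0.45, adjusted p = 2.27e-04), and A375 exceeded SKMEL28 (adjusted p = 2.04e-05, edgeR on all 18 libraries).

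Few genes behaved in this way. Genes with at most 3 counts in each GFP library that were called higher made up 0.465% of the genes tested in WM164, whereas SKMEL28 had 0.103% and A375 0.152%. Such genes, TFAP2B among them, pass the count filter only through their MAFG libraries, so that being tested and being called higher are not independent. No count in any of the 9 GFP libraries and a call with MAFG was found for 7 genes in WM164 and for 3 genes in A375 cells but for 0 in SKMEL28, and TFAP2B was the 1 gene in both. MLANA had 1750 to 1976 counts and EYA2 248 to 266 in WM164 cells overexpressing MAFG, and both had 0 counts in the A375 libraries in which TFAP2B was found. SOX10, a melanocyte lineage marker, was also higher in those A375 libraries, at 3855 to 5630 counts against 266 to 411 with GFP. S100B had 19 to 48 counts against 1 to 5. Other markers of this lineage did not follow. MITF overlapped between conditions, with 879 to 1219 counts against 998 to 1111 with GFP. PMEL had 3 to 22 counts against 0 to 12, and TYR had none in either condition. Whether the higher levels of TFAP2B, SOX10 and S100B share a source was not tested.

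TFAP2B lies on chromosome 6, from 50818723 to 50847619 on the plus strand of GRCh38 (ENSG00000008196.13). The 250 bases before its RefSeq start, chr6:50818621-50818870 on the plus strand of GRCh38.p14, are shown because this gene went from no count to a call in 2 lines. The letters TGCTGA, the core that MAF proteins recognise, are in capitals.
TFAP2B: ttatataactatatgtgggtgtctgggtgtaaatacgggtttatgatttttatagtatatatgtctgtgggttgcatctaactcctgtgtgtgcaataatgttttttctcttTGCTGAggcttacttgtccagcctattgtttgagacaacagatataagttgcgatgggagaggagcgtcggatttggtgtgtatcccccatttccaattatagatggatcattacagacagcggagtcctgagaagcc
The match to TGCTGA began 138 bases before the RefSeq start. The E-box variant CATGTG, to which MITF can bind, was found on the other strand from 14 bases after the start, outside the bases shown. Searched on both strands in windows of 250 bases before and 50 after the start, TGCTGA was present in 17.3% and CATGTG in 11.1% of 35116 RefSeq promoters. The GENCODE gene starts upstream of the RefSeq start, inside these 250 bases and before the TGCTGA match. By that annotation, the match lies within the gene and not upstream of it.

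TFAP2A, which encodes AP-2α and is the AP-2 factor best known in melanocytes, had the highest mean TPM of the AP-2 factors in all 6 conditions. The margin was small in A375 cells overexpressing MAFG, with means of 23.7 TPM for TFAP2A and 21.35 for TFAP2C. In replicate 1 of that condition, TFAP2C was the higher (21.2 against 18.8 TPM). In WM164 cells, the level of TFAP2A was 409, 394 and 390 CPM with GFP and 255, 237 and 246 CPM with MAFG. The 3 MAFG libraries lay below the 3 GFP libraries, and TFAP2A fell by 0.69 on the log2 scale (standard error 0.05, adjusted p = 1.00e-08, edgeR). In SKMEL28 cells, it was at 331 ± 12.7 CPM with GFP and 351 ± 13.9 with MAFG, a log2 fold change of 0.09 with a 95% interval from −0.03 to 0.21 (adjusted p = 0.280). In A375 cells, TFAP2A was at 96.6 ± 1.55 and 88.2 ± 4.16 CPM (log2 fold change −0.13, 95% interval −0.35 to 0.09, adjusted p = 0.997). The log2 fold change in WM164 was 0.78 below that in SKMEL28 (adjusted p = 2.39e-06) and 0.56 below that in A375 cells (adjusted p = 1.62e-04, contrasts in 1 edgeR model of all 18 libraries).

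TFAP2C, which encodes AP-2γ, moved opposite to TFAP2A in WM164 cells. Its counts were 776, 814 and 719 with GFP and 1824, 1793 and 1860 with MAFG, or 27.7 ± 0.699 and 62.5 ± 4.54 CPM, with no overlap. TFAP2C rose by 1.17 on the log2 scale (standard error 0.07, adjusted p = 1.02e-09). SKMEL28 cells were at 80.3 ± 3.14 CPM with GFP and 76.1 ± 1.32 with MAFG (log2 fold change −0.08, 95% interval −0.20 to 0.05, adjusted p = 0.361). A375 libraries did not overlap, with 62.0, 69.0 and 65.5 CPM against 92.2, 77.6 and 70.6, but the spread of the MAFG libraries was wide and the change did not pass the test (log2 fold change 0.28, standard error 0.11, adjusted p = 0.655). The response in WM164 exceeded that in SKMEL28 by 1.25 (adjusted p = 5.45e-07) and that in A375 cells by 0.88 on the log2 scale (adjusted p = 5.19e-05).

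Levels of different genes can be set side by side only per length, which the deposited TPM values provide. In WM164 cells overexpressing GFP, TFAP2A made up 93.8% ± 0.150 and TFAP2C 6.22% ± 0.150 of the summed TPM of TFAP2A, TFAP2B and TFAP2C. With MAFG overexpression, the shares were 77.8% ± 1.27 for TFAP2A, 18.4% ± 1.13 for TFAP2C and 3.85% ± 0.645 for TFAP2B, while the sum was 90.8 ± 9.84 TPM with GFP and 78.8 ± 4.63 with MAFG. The lowest TFAP2C share with MAFG, 17.5%, was above the highest with GFP, 6.38%. SKMEL28 cells held a TFAP2A share of 81.3% ± 1.13 with GFP and 83.2% ± 0.0638 with MAFG. In A375 cells, TFAP2A held 58.3% ± 1.28 with GFP and 51.7% ± 4.52 with MAFG, and the TFAP2B share with MAFG was 1.33% ± 0.655. These shares were not tested.

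FOXD3, a forkhead repressor of neural crest cells, responded in SKMEL28 cells. It had 382, 229 and 306 counts with GFP, or 12.7, 11.3 and 10.6 CPM, and 191, 161 and 120 counts with MAFG, or 6.37, 5.77 and 4.50 CPM. All MAFG libraries lay below all GFP libraries, and FOXD3 fell by 1.05 on the log2 scale (standard error 0.16, adjusted p = 9.23e-05). In WM164 cells, FOXD3 was at 13.2 ± 1.43 CPM with GFP and 13.6 ± 1.11 with MAFG, with overlapping libraries and a log2 fold change of 0.05 (95% interval −0.19 to 0.28, adjusted p = 0.791). In A375 cells, it had 30, 36 and 22 counts with GFP and 21, 22 and 29 with MAFG, too few for a narrow estimate (log2 fold change −0.41, 95% interval −1.55 to 0.74). The response in WM164 differed from that in SKMEL28 cells by 1.10 (standard error 0.23, adjusted p = 0.00209).

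FOXD1, a related forkhead factor best known from the kidney stroma, showed a like change in SKMEL28 cells. It had 191, 111 and 125 counts with GFP and 82, 80 and 63 with MAFG, or 5.38 ± 1.03 and 2.66 ± 0.262 CPM. The libraries did not overlap, and FOXD1 fell by 1.01 on the log2 scale (standard error 0.21, adjusted p = 0.00156). The fold limit was met by a small margin for both genes. Without GFP replicate 1 of SKMEL28, which held the highest values, the log2 fold changes were −0.97 for FOXD3 and −0.87 for FOXD1, and without MAFG replicate 3 they were −0.92 and −0.94, so that neither was called, although the adjusted p stayed at 0.0167 or less. On the log2(TPM + 1) scale, FOXD1 no longer passed (−0.61, adjusted p = 0.0762).

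FOXD1 levels overlapped between conditions in the other lines. In WM164 cells, they were 6.75, 4.51 and 4.78 CPM with GFP and 4.93, 4.80 and 5.19 with MAFG (log2 fold change −0.10, 95% interval −0.48 to 0.27). A375 cells had 26.5 ± 0.605 CPM with GFP and 25.2 ± 5.32 with MAFG (log2 fold change −0.08, 95% interval −0.39 to 0.23). The response of FOXD1 in SKMEL28 lay 0.91 below that in WM164 (adjusted p = 0.0228) and 0.94 below that in A375 cells (adjusted p = 0.0175). The first difference rested on 5 single libraries, without any of which its adjusted p was above 0.05 and at most 0.0834, namely GFP replicates 2 and 3 and MAFG replicate 3 of WM164 and GFP replicate 1 and MAFG replicate 3 of SKMEL28. The second was lost without either of those SKMEL28 libraries (adjusted p up to 0.0753). On the log2(TPM + 1) scale, neither passed (0.74 with adjusted p = 0.0809 between WM164 and SKMEL28, −0.40 with adjusted p = 0.515 between SKMEL28 and A375).

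FOXD3 lies on chromosome 1 (63322567 to 63325128, plus strand, ENSG00000187140.5) and FOXD1 on chromosome 5 (73444827 to 73448777, minus strand, ENSG00000251493.5). The 250 bases before each RefSeq start, chr1:63322317-63322566 on the plus strand and chr5:73448778-73449027 on the minus strand of GRCh38.p14, are shown because both genes fell in the same line, with E-box letters in capitals.
FOXD3: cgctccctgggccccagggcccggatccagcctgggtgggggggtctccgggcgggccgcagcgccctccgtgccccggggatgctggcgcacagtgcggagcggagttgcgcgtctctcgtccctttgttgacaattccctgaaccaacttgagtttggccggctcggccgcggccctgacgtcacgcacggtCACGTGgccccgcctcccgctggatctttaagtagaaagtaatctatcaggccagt
FOXD1: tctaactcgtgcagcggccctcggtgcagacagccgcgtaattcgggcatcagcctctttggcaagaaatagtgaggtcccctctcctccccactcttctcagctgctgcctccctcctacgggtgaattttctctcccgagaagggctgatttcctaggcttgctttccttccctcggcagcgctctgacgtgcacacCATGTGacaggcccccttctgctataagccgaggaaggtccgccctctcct
The palindromic E-box CACGTG began 56 bases before the FOXD3 start and CATGTG 51 bases before the FOXD1 start. CACGTG was present in 7.26% and CATGTG in 11.1% of the 35116 promoters. Of the 6 regulators with a promoter entry, 4 had a match to at least 1 of the 4 motifs searched, the last of which was the AP-1 site TGACTCA, found in 4.95% of promoters. MSX2 had TGCTGA from 212 bases before its start, and neither MSX1 nor the 2 entries of TFAP2A had a match. TFAP2C, EYA2 and ETS1 had no entry.

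FOXD3-AS1 overlaps FOXD3 on the opposite strand, and the use of strand in counting is not given in the sources used here. It had 57 to 141 counts with GFP and 51 to 65 with MAFG in SKMEL28 cells, fewer than FOXD3 in each of these conditions. In WM164 cells, FOXD3-AS1 had 46 to 73 counts with GFP and 74 to 101 with MAFG. FOXD1-AS1 had at most 1 count in any library. Reads of FOXD3 and its antisense RNA cannot be told apart if strand was not used.

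MSX1, a homeobox repressor induced by BMP signals, was higher with MAFG in WM164 cells. It was at 2.32, 3.25 and 2.80 CPM with GFP and 3.99, 4.80 and 4.36 with MAFG, without overlap. MSX1 rose by 0.65 on the log2 scale (standard error 0.20, adjusted p = 0.0217), under the fold limit. Its adjusted p was above 0.05 without any of 4 WM164 libraries (GFP replicates 1 and 3, MAFG replicates 2 and 3, at most 0.0816), and was 0.0525 on the log2(TPM + 1) scale. MSX1 was at 3.64 ± 0.334 CPM with GFP in SKMEL28 (log2 fold change −0.18, 95% interval −0.61 to 0.26) and at 14.6 ± 2.34 with GFP in A375 cells (log2 fold change −0.19, 95% interval −0.65 to 0.27).

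MSX2, its close relative, stayed within 2.79 to 7.14 CPM over all 18 libraries. MAFG and GFP libraries overlapped in each line, and the log2 fold changes were 0.11 (95% interval −0.19 to 0.41), 0.13 (−0.25 to 0.52) and 0.08 (−0.45 to 0.60) in the order WM164, SKMEL28 and A375, with an adjusted p of 0.600, 0.629 and 0.997. At this precision, a change of up to 0.41, 0.52 and 0.60 on the log2 scale remained possible.

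EYA2, a coactivator with a phosphatase domain that works with homeodomain proteins, was detected in WM164 alone. It had 23, 28 and 17 counts with GFP and 257, 248 and 266 with MAFG, or 0.807 ± 0.129 and 8.79 ± 0.504 CPM. The conditions were far apart, and EYA2 rose by 3.43 on the log2 scale (standard error 0.20, adjusted p = 2.98e-10). No count was found in any of the 12 libraries of SKMEL28 and A375. With 3 counts per library as the bound, EYA2 in WM164 cells overexpressing MAFG was at least 78.6-fold above SKMEL28 and at least 113-fold above A375 cells. A difference in response could not be estimated for EYA2 or TFAP2B, because TFAP2B had no count in the GFP cells of any line and EYA2 had none in SKMEL28 and A375 cells.

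ETS1, a winged helix factor of early neural crest and of the RAS pathway, fell in WM164 cells. It was at 149, 154 and 152 CPM with GFP and 82.3, 84.3 and 77.0 with MAFG. The change was −0.90 on the log2 scale (standard error 0.06, adjusted p = 8.39e-10), under the fold limit, with tightly grouped libraries. In SKMEL28 cells, all MAFG libraries were above the GFP libraries, at 88.3, 96.1 and 79.6 CPM against 74.2, 75.2 and 75.9. ETS1 rose by 0.23 there (standard error 0.07, adjusted p = 0.0184), under the fold limit. It no longer passed the adjusted p without GFP replicate 1, MAFG replicate 1 or MAFG replicate 2 (adjusted p up to 0.120), and the change was 0.01 on both TPM scales. A375 cells had 99.9, 102 and 105 CPM with GFP and 92.6, 88.0 and 80.9 with MAFG, without overlap, and the change did not pass (log2 fold change −0.23, standard error 0.10, adjusted p = 0.682).

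Of the 7 regulators whose responses could be compared, ETS1 was the one that passed the adjusted p between all 3 pairs of lines. WM164 lay 1.13 below SKMEL28 (adjusted p = 2.03e-07) and 0.67 below A375 (adjusted p = 1.52e-04), and SKMEL28 lay 0.46 above A375 cells on the log2 scale (adjusted p = 0.00686). On the log2(TPM + 1) scale, the differences of ETS1 from A375 (−0.38 and 0.29) and those of TFAP2A (−0.38 between WM164 and SKMEL28, −0.25 between WM164 and A375) did not pass the test. Between WM164 and SKMEL28, 3 of 7 testable regulators passed the adjusted p and the fold limit (ETS1, TFAP2C and FOXD3), against 5.1% of 18767 genes. No regulator passed both between WM164 and A375 (4.39% of genes) or between SKMEL28 and A375 (4.2%), with edgeR as with DESeq2, while 4 and 5 of 7 had an unadjusted p under 0.05. With the adjusted p alone, 5, 3 and 2 passed, against 13.7%, 9.21% and 9.51% of genes. Leaving out MAFG replicate 1 of A375 gave 1 call between WM164 and A375 (MSX1, 1.12, adjusted p = 0.00305). Leaving out MAFG replicate 2 or 3 of A375, GFP replicate 3 of SKMEL28 or MAFG replicate 2 of SKMEL28 moved FOXD1 past the fold limit between SKMEL28 and A375 (−1.09 at the lowest, adjusted p at most 0.0290). The 3 comparisons share libraries and are not independent.

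**Figure D2:**
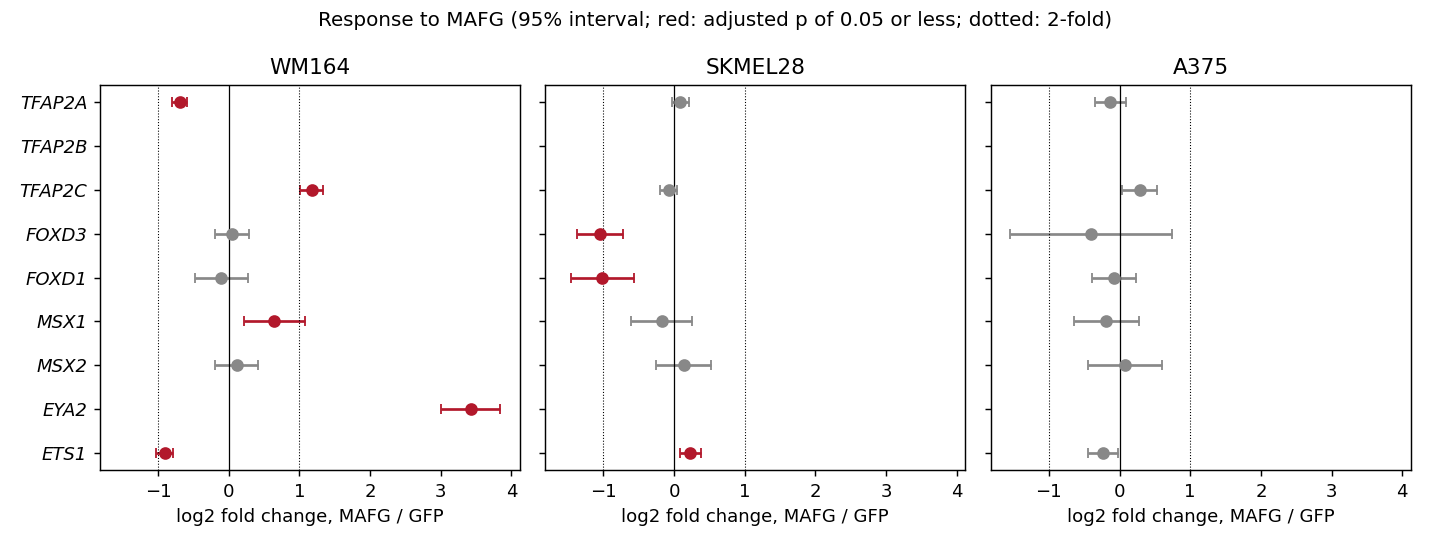
Response to MAFG, with the log2 fold change of MAFG over GFP on the horizontal axis, 1 row per regulator and 1 panel per line, 95% intervals as whiskers, red where the adjusted p was 0.05 or less, and dotted lines at a 2-fold change. TFAP2B is left out because its fold change is only bounded, and EYA2 has a point in WM164 alone, at 3.43, to the right of all others.

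Levels in cells overexpressing GFP set these responses in context. Of the regulators tested between WM164 and A375, 6 of 8 were called, against 46.7% of all genes, and between SKMEL28 and A375 4 of 7, against 43.8%. TFAP2A was higher in WM164 than in A375 cells by 2.04 (adjusted p = 9.25e-17) and in SKMEL28 than in A375 cells by 1.78 on the log2 scale (adjusted p = 7.23e-16). FOXD3 followed the same order, at 13.2 ± 1.43 CPM for WM164, 11.5 ± 1.10 for SKMEL28 and 0.791 ± 0.182 for A375 cells, and WM164 and SKMEL28 did not differ beyond their spread (log2 difference 0.19, 95% interval −0.14 to 0.52). FOXD1 and MSX1 had the opposite order. FOXD1 was at 5.35 ± 1.22, 5.38 ± 1.03 and 26.5 ± 0.605 CPM and MSX1 at 2.79 ± 0.466, 3.64 ± 0.334 and 14.6 ± 2.34 CPM, in the order WM164, SKMEL28 and A375. A375 exceeded WM164 by a log2 difference of −2.31 for FOXD1 and −2.38 for MSX1 (WM164 minus A375, adjusted p = 1.32e-10 and 1.75e-09).

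Between WM164 and SKMEL28 cells overexpressing GFP, 3 of 8 regulators were called, against 28.7% of all genes. TFAP2C was lower in WM164 by a log2 difference of −1.54 (WM164 minus SKMEL28, adjusted p = 8.16e-12), and ETS1 was higher by 1.01 (adjusted p = 2.70e-10), although by only 0.40 on the log2(TPM + 1) scale (adjusted p = 0.0292, limma), under the fold limit. EYA2, with 17 to 28 counts against none, was the other. TFAP2A differed by 0.27 (adjusted p = 8.89e-04) on counts but by −0.31 on the log2(TPM + 1) scale, so that the order of WM164 and SKMEL28 for this gene depends on the scale, and FOXD3 turned from 0.19 to −0.29 in the same way. FOXD1 was level on counts but was at 1.56 to 2.01 TPM in WM164 and 2.48 to 5.02 TPM in SKMEL28 cells, a difference of −0.76 on the log2(TPM + 1) scale (adjusted p = 0.00289, limma). With MAFG overexpression, ETS1 levels in WM164 and SKMEL28 differed by −0.12 (adjusted p = 0.184) and in WM164 and A375 by −0.10 (adjusted p = 0.224), where the GFP cells differed by 1.01 and 0.57 on counts and by 0.40 and 0.090 on the log2(TPM + 1) scale, the last without passing the test (adjusted p = 0.607, limma). TFAP2C in WM164 remained below SKMEL28 by a log2 difference of −0.28 (adjusted p = 0.00805).

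**Figure D3:**
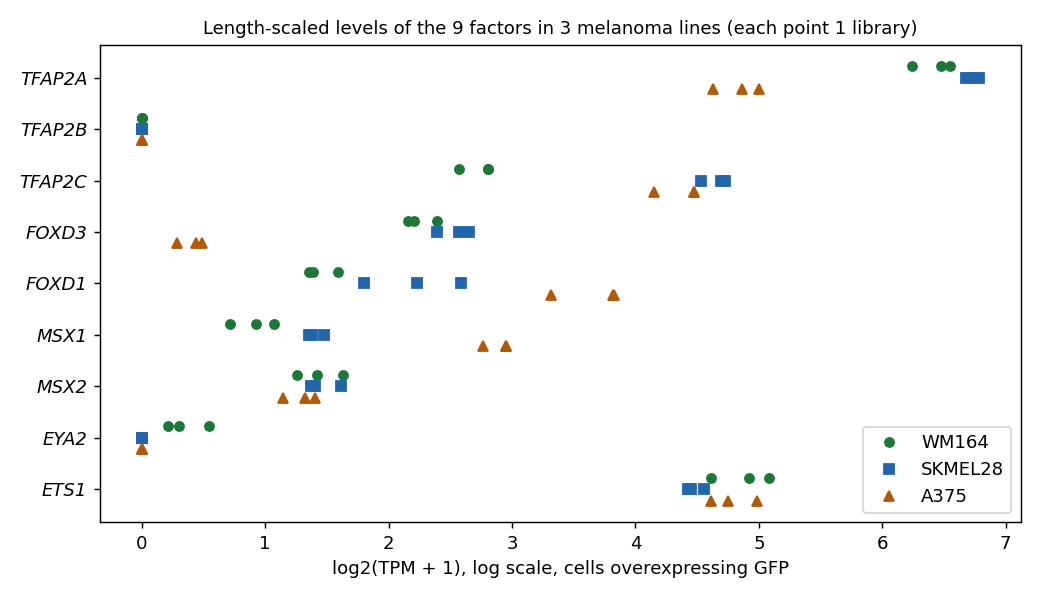
Levels of the 9 regulators in cells overexpressing GFP on the length-scaled log2(TPM + 1) axis, 1 point per library, with WM164 as circles, SKMEL28 as squares and A375 as triangles (points may overlap). TFAP2A has the highest mean in each line, with 85.2, 105 and 27.6 TPM, and ETS1 lies between 21.3 and 28.6 TPM on average in all lines.

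Relatives of the regulators were read as a list. Of 9 paralogues, 6 were tested in each line, and the counts that rose and fell were 2 and 2 in WM164, 1 and 1 in SKMEL28, and 1 and 0 in A375 cells. Over all tested genes, 16.2% rose and 15.6% fell in WM164, 14.6% and 15.3% in SKMEL28, and 0.78% and 0.0634% in A375 cells. EYA1, a coactivator related to EYA2, had 0 to 10 counts with GFP and 184 to 232 with MAFG in A375 cells and rose by 5.01 on the log2 scale (adjusted p = 0.00258), whereas it fell by 0.65 in WM164 cells (adjusted p = 1.75e-05). TFAP2E, another AP-2 gene, was called lower in SKMEL28 cells (log2 fold change −2.30, adjusted p = 0.0438), with 8 to 39 counts against 0 to 13 and overlapping libraries. Among 8 genes that encode partners of EYA proteins, SIX4 rose in WM164 by 0.56 (adjusted p = 2.28e-04) and SIX5 fell in SKMEL28 cells by 0.64 (adjusted p = 0.00331), with 3 genes tested in each. None of the 4 tested in A375 cells passed edgeR's or DESeq2's test or had an unadjusted p under 0.05.

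Cofactors and inhibitors of AP-2 proteins include CITED1, a coactivator expressed in melanocytes, and KCTD1 and KCTD15, which repress AP-2 activity. Of 8 tested, 1 rose and 4 fell in WM164, where 16.2% of all tested genes rose and 15.6% fell. In SKMEL28 cells, 1 rose and 1 fell of 8, against 14.6% and 15.3% of all tested genes. CITED1 was called lower in both lines, from 68.0 ± 2.95 to 29.4 ± 1.68 CPM in WM164 (log2 fold change −1.21, adjusted p = 3.69e-10) and from 21.3 ± 0.629 to 3.94 ± 0.582 CPM in SKMEL28 cells (−2.43, adjusted p = 1.78e-09). In A375 cells, no cofactor of 9 passed with edgeR or DESeq2, and 1 had an unadjusted p under 0.05. CITED1 was at 4 to 25 counts with GFP there.

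Genes reported elsewhere as direct targets of AP-2 factors were measured as a further list, of which 6 of 9 were tested in each line. In WM164 cells, 4 rose and 1 fell, where 16.2% of all tested genes rose and 15.6% fell, and F2R, the thrombin receptor, rose by 1.26 (adjusted p = 8.78e-09). In SKMEL28 cells, 3 rose and 1 fell, against 14.6% and 15.3% of all tested genes, and MMP2, a gelatinase, rose by 2.33 (adjusted p = 2.76e-09). In A375 cells, 3 rose, against 0.780% of all tested genes, namely ERBB3, a neuregulin receptor, by 2.58 (adjusted p = 4.75e-05), MMP2 by 1.99 (adjusted p = 6.65e-05) and IGFBP5, an IGF-binding protein, by 1.05 (adjusted p = 0.00898). The median log2 fold change of the list was 0.45, 0.29 and 0.72 in WM164, SKMEL28 and A375, where the median over all tested genes was −0.00, −0.01 and −0.00. The list does not give the direction in which AP-2 factors are reported to drive each gene. Its counts and medians pool all directions and do not measure AP-2 activity. KIT had at most 6 counts in any library and was not tested.

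Other specifiers of the neural plate border and the neural crest were taken from a list of 24 genes. In WM164 cells, 8 rose and 3 fell of 21 tested, against 16.2% and 15.6% of all tested genes. SOX9, a crest and cartilage factor, fell there from 157 to 239 counts to 1 to 5 (log2 fold change −6.14, adjusted p = 1.25e-10), and NR2F1, a nuclear receptor, rose by 1.96 (adjusted p = 3.96e-06). MYCN, which drives proliferation, had no count with GFP and 29 to 60 with MAFG, at least 14.2-fold higher. In SKMEL28 cells, 7 rose and 1 fell of 19, against 14.6% and 15.3% of all tested genes. ZIC2 (1.45, adjusted p = 6.58e-05), ZIC5 (2.51, adjusted p = 0.00150) and DLX5 (2.55, adjusted p = 2.34e-04) were called higher there, all of them regulators of the plate border. In A375 cells, 2 rose of 18, against 0.78% of all tested genes, namely SOX10 by 3.68 (adjusted p = 2.12e-05) and SOX5 by 2.10 (adjusted p = 4.75e-05).

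BMP signals are a main inducer of MSX and AP-2 genes in the embryo. Of 13 ligands, receptors, SMADs and inhibitors, 10 were tested in WM164 cells, where 3 rose and 2 fell. Over all genes tested there, 16.2% rose and 15.6% fell. Of the 10, 2 were called higher and 1 lower, against 4.94% of genes called higher and 6.94% called in either direction. DESeq2 called 4, with BMP4 as the further gene, which had no count with GFP and 4 to 8 with MAFG. The ligands BMP2 and BMP7 rose by 2.36 and 1.71 on the log2 scale (adjusted p = 2.86e-04 and 1.07e-09, edgeR), and SMAD9, a receptor-regulated SMAD, fell by 1.18 (adjusted p = 5.95e-08). BMP2 was low, with 7 to 16 counts with GFP and 44 to 73 with MAFG. In SKMEL28 cells, 2 of 10 rose, near the 14.6% of all tested genes that did. They were the receptors BMPR1A by 0.27 (adjusted p = 0.0242) and BMPR1B by 0.49 (adjusted p = 0.00749). None of 11 passed in A375 cells with edgeR or DESeq2, and 1 had an unadjusted p under 0.05.

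**Figure D4:**
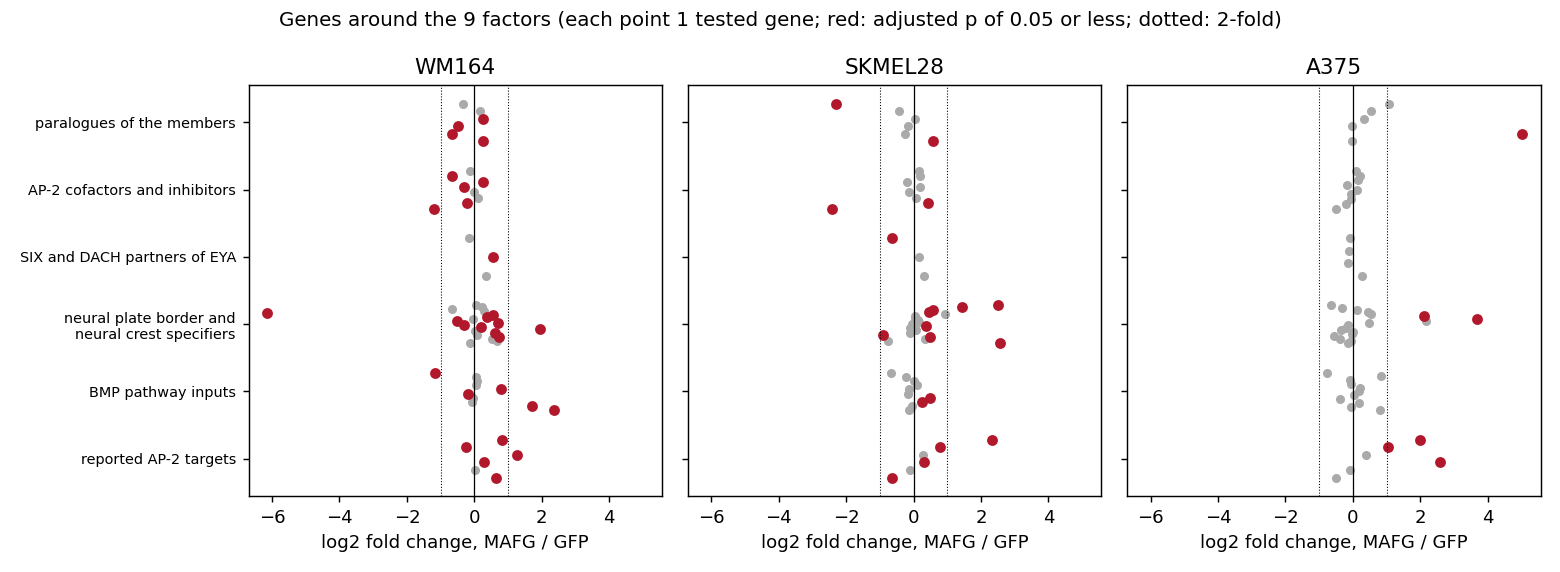
Response of genes around the regulators, with the log2 fold change of MAFG over GFP on the horizontal axis, 1 point per tested gene, 6 lists as rows and 1 panel per line, red where the adjusted p was 0.05 or less, and dotted lines at a 2-fold change. In A375 cells, red points are found for EYA1 at 5.01 among the paralogues, 2 specifiers and 3 AP-2 targets, and MYCN in WM164 is left out because its fold change is only bounded.

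Marker lists of other cell types were read beside these results. Melanocyte lineage markers summed to 860 to 1161 TPM with GFP and 679 to 760 with MAFG in WM164, 1875 to 2022 and 1479 to 1647 in SKMEL28, and 11.9 to 12.8 and 36.8 to 48.2 in A375 cells. Of 6, 4 fell in WM164 (MLANA, TYR and PMEL were called), 3 fell and 1 rose in SKMEL28, and 1 of 3 tested rose in A375 cells with edgeR (SOX10), where DESeq2 called S100B as well. Over all tested genes, 15.6% fell in WM164, 15.3% fell and 14.6% rose in SKMEL28, and 0.78% rose in A375 cells. The ranges of the summed melanocyte markers in MAFG and GFP libraries did not overlap in any line. In A375 cells, nearly all of the rise was SOX10, with means of 2.61 TPM with GFP and 32.1 with MAFG. MITF was at 9.41 and 9.45 TPM there, PMEL at 0.173 and 0.177, and S100B at 0.063 and 0.72. Keratinocyte markers summed to 6.06 to 7.79 TPM in WM164, 21.9 to 25.9 in SKMEL28 and 48.6 to 65.9 in A375 cells, with KRT1 at 0 throughout, and the ranges of GFP and MAFG libraries overlapped in each line. Nearly all of each sum was KRT10, with means of 7.05 and 6.22 TPM in WM164, 23.9 and 23.4 in SKMEL28, and 57.15 and 56.4 in A375 cells (GFP and MAFG). No other keratinocyte marker averaged above 0.32 TPM in any condition. Fibroblast markers summed to 3.89 to 7.16 TPM with GFP and 4.23 to 5.59 with MAFG in WM164 and to 2.13 to 3.30 and 2.25 to 6.72 in A375, whereas SKMEL28 cells had 6.36 to 7.10 and 10.3 to 12.7 TPM, without overlap. LUM, the most abundant of them in WM164 and SKMEL28, fell in WM164 from 17.9 ± 0.108 to 8.96 ± 0.278 CPM (log2 fold change −0.997, adjusted p = 3.42e-07) and rose in SKMEL28 cells from 11.6 ± 0.776 to 19.9 ± 1.67 CPM (0.77, adjusted p = 5.15e-05). COL1A2 (2.05, adjusted p = 0.0268, 1 to 7 against 12 to 16 counts) and PDGFRB (3.05, adjusted p = 5.65e-05) were called higher in WM164 cells by edgeR, and DESeq2 called LUM and PDGFRB there but not COL1A2. Leukocyte markers summed to 0.890 TPM or less. The part of these markers in the changes of the 9 regulators was not tested, and fewer cells of a kind cannot be told apart from less RNA per cell in bulk libraries.

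For each regulator, the genes with the most similar pattern over the 18 libraries were read as a description, by Pearson correlation of log2(CPM + 0.5) with 18767 genes. Libraries of a line and condition share these patterns, so that the values carry no test. EYA2 was followed by PLA2G5 and COL9A1 (both 0.994), TFAP2A by LHFPL3-AS1 (0.997) and GALNT3 (0.996), FOXD3 by STOX2 (0.992) and PACSIN2 (0.990), and FOXD1 by HBEGF (0.987) and PRKCSH (0.985). TFAP2B came closest to PTN (0.947) and ELFN1 (0.931), and TFAP2C to JAM3 (0.942) and CDK14 (0.939). MSX1 was closest to DDB1 (0.989) and CERS2 (0.985), MSX2 to MST1 (0.937) and LY6E-DT (0.930), and ETS1 to VN1R68P (0.875) and HOMER3 (0.869).

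The remaining regulators lie elsewhere in GRCh38, with TFAP2A on chromosome 6 (10393186 to 10419659, minus strand), TFAP2C on chromosome 20 (56629306 to 56639283, plus strand) and EYA2 on chromosome 20 (46894624 to 47188844, plus strand). MSX1 lies on chromosome 4 (4859665 to 4863936, plus strand), MSX2 on chromosome 5 (174724582 to 174730896, plus strand) and ETS1 on chromosome 11 (128458761 to 128587558, minus strand). TFAP2A-AS1 and TFAP2A-AS2, EYA2-AS1 and ETS1-AS1 overlap their partners on the opposite strand, and in WM164 cells they had at most 76, 48, 9 and 0 counts. These are small beside the 6413 to 11873 counts of TFAP2A and the 248 to 266 of EYA2 with MAFG.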

How the data were processed

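RNA-seq libraries of 3 melanoma lines were grouped by the line and treatment that the labels give. The authors trimmed reads with cutadapt (1.8.1), discarded pairs with an end under 25 bases, aligned the rest to GRCh38 with STAR (2.7.7a) and deposited whole-number counts of uniquely aligned reads per gene (featureCounts), without normalization. The deposited TPM values, scaled per length and library by the authors, come from RSEM (1.3.0) as far as the submitters' processing notes name tools. The library kit is given as unstranded in the labels and as strand-specific in the methods, and the use of strand in counting and the annotation release are not given in the sources used here.

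MAFG was compared with GFP within each line on the counts of 6 libraries with edgeR 4.0.16 in R 4.3.3 (TMM, filterByExpr, quasi-likelihood test, Benjamini-Hochberg adjustment over all tested genes). A call required more than a 2-fold change with the adjusted p at or below 0.05. Differences in response and levels between lines were contrasts in 1 model of 18 libraries. Standard errors are the log2 fold change over the square root of F, with 95% intervals from the t distribution. Folds against groups at 0 are bounds at 3 counts per library. Counts per library ranged from 20122172 to 39025042, and replicates of a condition correlated at 0.984 to 0.994 over 18 pairs with more than sampling noise between them (mean chi-square per gene 5.90 to 96.7, near 1 under sampling noise). No sample column was left unused (0). Positions came from GENCODE release 44 and promoters from RefSeq (GRCh38.p14).

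The genes named are the 9 regulators, MAFG, the called genes of the lists and, for each regulator, the 2 genes with the most similar pattern. LUM, S100B and further genes named with values that were not called were chosen after their values were seen. The regulators and all lists were chosen with earlier results of these data known, and results on them are a description of these libraries. Alternatives were DESeq2 1.42.0, DESeq2's size factors, fits without a filter or with a minimum of 10 counts per library, limma 3.58.1 on log2(TPM + a pseudocount of 1 or 0.1) for genes reaching 1 TPM in 3 libraries, the replicate number as a block, no limit on the fold change, 1 model for all lines and each library left out. The comparison of cells overexpressing MAFG between lines was added after the data were seen. The fits were tested on simulated data. Figures were drawn with matplotlib 3.10.9.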

Additional observations from a re-analysis of the deposited data

Results flagged for a closer look

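A response to MAFG that differed between 2 lines by the test of the difference itself was found in 10 of 21 comparisons of the testable regulators (edgeR, contrasts in 1 model of 18 libraries, values on the log2 scale). For ETS1, the difference was −1.13 between WM164 and SKMEL28 (standard error 0.10, adjusted p = 2.03e-07), −0.67 between WM164 and A375 (adjusted p = 1.52e-04) and 0.46 between SKMEL28 and A375 (adjusted p = 0.00686). For TFAP2A, it was −0.78 between WM164 and SKMEL28 (adjusted p = 2.39e-06) and −0.56 between WM164 and A375 (adjusted p = 1.62e-04). For TFAP2C, the same pairs gave 1.25 (adjusted p = 5.45e-07) and 0.88 (adjusted p = 5.19e-05). For FOXD3, WM164 and SKMEL28 differed by 1.10 (adjusted p = 0.00209). For FOXD1, WM164 and SKMEL28 differed by 0.91 (adjusted p = 0.0228) and SKMEL28 and A375 by −0.94 (adjusted p = 0.0175), which came to 0.74 (adjusted p = 0.0809) and −0.40 (adjusted p = 0.515) on the log2(TPM + 1) scale with limma and did not pass there. On that scale, the ETS1 differences from A375 (−0.38 for WM164, 0.29 for SKMEL28) did not pass either. The same held for those of TFAP2A (−0.38 between WM164 and SKMEL28, −0.25 between WM164 and A375). The comparisons share libraries of the same lines.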

How the results depend on the processing

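Of 1384 alternative values for 68 values of single regulators, 306 of the changes with MAFG kept their direction and their side of the threshold, 13 lost the adjusted p and 11 turned sign. The response differences gave 452, 13 and 30, with 9 newly passing, and the levels between GFP lines 531, 7 and 10, with 2 newly passing. Without a limit on the fold change, 6 regulators were called in WM164, 5 between the GFP cells of WM164 and SKMEL28, and 5, 3 and 2 in the response differences of WM164 and SKMEL28, WM164 and A375, and SKMEL28 and A375. On log2(TPM + 1), 0 were called in SKMEL28, 0 in A375, 1 between the GFP cells of WM164 and SKMEL28 and 1 (TFAP2C) in the response difference of WM164 and A375. On log2(TPM + 0.1), 1 was called in SKMEL28 and 0 in A375 cells, where 0 were also called with a minimum of 10 counts per library. TFAP2B was not tested in A375 cells under these filters, which remove genes at 0 or under 1 TPM. Leaving out single libraries gave 0 to 2 calls in SKMEL28 (0 without GFP replicate 1 or MAFG replicate 3), 0 to 1 in the difference of WM164 and A375, and 0 to 1 in that of SKMEL28 and A375.

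Replicate numbers did not pair the libraries. The deviations of same-numbered libraries correlated at −0.112 to 0.0329, and 2 of 9 libraries correlated best with their own number. With the replicate number as a block, no count of called regulators moved by more than 1.5 times, TFAP2B in A375 cells had an adjusted p of 0.0288, and 2 response differences near 0 turned sign (FOXD1 between WM164 and A375, 0.0044, and MSX1 between SKMEL28 and A375, 0.034).

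The other log2 values that turned sign were small and did not pass in the main test, except TFAP2A and MSX2 between GFP lines. On log2(TPM + 1) and log2(TPM + 0.1), FOXD1 was 0.13 and 0.18 in WM164, and MSX2 was −0.033 and −0.049 and TFAP2A −0.083 and −0.084 in SKMEL28 cells. On log2(TPM + 1), the GFP cells of WM164 and SKMEL28 differed by −0.027 for MSX2, −0.31 for TFAP2A and −0.29 for FOXD3. On that scale, response differences were 0.22 for MSX2 (WM164 and SKMEL28), 0.34 for FOXD1 (WM164 and A375), and −0.064 for MSX2 and 0.067 for MSX1 (SKMEL28 and A375). With DESeq2, with its size factors, without a filter and with a minimum of 10 counts, FOXD1 between the GFP cells of WM164 and SKMEL28 was 0.0065, 0.0067, 0.015 and 0.029. The first 3 of these settings gave 0.021, 0.021 and 0.0030 for the MSX1 difference of SKMEL28 and A375, and the fourth gave 0.0024 for the MSX2 difference of WM164 and SKMEL28. Leaving out single libraries gave −0.044 to 0.10 for FOXD3 and −0.22 to 0.10 for FOXD1 in WM164, −0.10 to 0.20 for MSX2 and −0.24 to 0.010 for FOXD1 in A375, and −0.21 to 0.15 for FOXD1 between the GFP cells of WM164 and SKMEL28. It gave response differences of −0.098 to 0.087 for MSX2 (WM164 and SKMEL28), −0.089 to 0.22 for MSX2 and −0.14 to 0.17 for FOXD1 (WM164 and A375), and −0.072 to 0.24 for MSX2 and −0.16 to 0.29 for MSX1 (SKMEL28 and A375). The cause was not tested.

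Depth limits FOXD3 in A375 cells, with 21 to 36 counts per library, and TFAP2B in SKMEL28 cells, with at most 6.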
